A study of Mus musculus with 23 samples.

Results

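Complex I of the respiratory chain (NADH:ubiquinone oxidoreductase) takes electrons from NADH, passes them to ubiquinone and pumps protons across the inner mitochondrial membrane. Its catalytic core is conserved from bacteria and is encoded in part by the nucleus and in part by mitochondrial DNA, whereas the accessory subunits, which surround the core, and the assembly factors, which build the complex and then leave it, are all nuclear. Axon terminals and dendrites hold many mitochondria, and transcripts of nuclear mitochondrial genes are known in neuronal processes. The nuclear genes of complex I were taken here as the rows of the synaptosome and chamber total RNA tables that were not listed among the long non-coding RNAs and whose symbols begin with Ndufa, Ndufb, Ndufc, Ndufs or Ndufv. There were 46 such genes among 22018 mRNA rows and 48709 rows in all. The rule matched 50 rows, and 4 of these, Ndufa11b, Ndufab1-ps, Ndufb4c and Ndufs6b, stood in the lncRNA tables and were left out. Since they are copies of Ndufa11, Ndufab1, Ndufb4 and Ndufs6, reads of these 4 members may be divided between the copies, and their levels are uncertain. The 4 left-out rows had no count in any pool. In chambers they held at most 164 counts, for Ndufab1-ps in sc3, beside 9490 for Ndufab1. In C1, a shallow library, Ndufab1-ps held 8 counts beside 28 for Ndufab1. The 46 genes comprised 7 core subunits, 29 accessory subunits, 8 assembly factors (Ndufaf1 to Ndufaf8) and a pair of genes that carry the name but are no longer counted in complex I, Ndufa4, now placed in complex IV, and its paralog Ndufa4l2.

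RNA was measured in 3 preparations. Synaptosomes, resealed nerve endings, came from the hippocampi of C57B/6J mice aged 3 months in 3 pools of animals, called pool 1 to pool 3, and their total RNA libraries were made with a TruSeq kit after Trizol extraction. Microfluidic chambers held hippocampal neurons of CD1 embryos after 14 days in vitro, and the compartment into which their processes grow was cut out; its RNA was purified with a GenElute kit and made into libraries with a SMARTer Pico kit. There were 8 control chamber libraries without stimulation (C1, C2, C3, C9, C11, Ctrl3, Ctrl4 and sc3) and 3 libraries of chambers treated with 50 mM KCl, which depolarises neurons, for 2 h (KCL1, KCL1a and KCL4). Nothing in the labels says which chamber libraries came from separate cultures, so p-values measure the spread between these libraries, which may be technical.

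The libraries differed in depth and make-up, and these differences stood beside every result below. Synaptosome libraries held 14714196 to 16667516 counts, of which mRNA rows took 11.0% to 12.1%. Control libraries held 722529 to 4800303 counts apart from sc3 with 48281227, and KCl libraries held 2632490, 2842061 and 80883504. Levels are therefore given as CPM in which the counts of a library's mRNA rows are the total (mRNA CPM). mRNA rows took 97.3% of the counts of sc3 and 68.3% to 82.2% in the other chamber libraries. Olfactory, vomeronasal and taste receptors are not known to be used by hippocampal neurons. Their rows took 0.0103% of the counts of sc3, 0.160% to 0.893% in the 5 controls with bare-number titles and 1.07% and 1.30% in Ctrl3 and Ctrl4. Of the 46 complex I genes, 14 had no count in Ctrl3 and 10 had none in KCL1a, against at most 2 in any other library. Ctrl4, the library with the fewest counts, lacked 1. Of members with a median of at least 20 mRNA CPM in the other chamber libraries, 8 of 36 had no count in Ctrl3 and 6 of 37 none in KCL1a. Of all mRNA rows at that level, 7.04% had no count in Ctrl3 and 3.36% none in KCL1a. Because sc3, Ctrl3 and Ctrl4 stood apart from the rest, each result is given with and without the library that decides it.

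The complex I genes are scattered over the genome, and members whose promoters could be matched to RefSeq (GRCm38.p6) numbered 40. The motif GCGCANGCGC is an element bound by nuclear respiratory factor 1 (NRF1), a transcription factor known for its sites in respiratory chain genes. This motif was searched on both strands from 250 bases before to 50 bases after each start site. It was found in 9 of the 40 matched members (22.5%) and in 5.19% of all 27025 genes with a window. The 120 bases before the start site are shown for 3 members whose levels are described below, so that the element can be seen in place, with the motif in capitals. They are the accessory subunit genes Ndufa11 (plus strand, chr17:56717642-56717761) and Ndufs5 (minus strand, chr4:123718187-123718306) and the assembly factor gene Ndufaf4 (plus strand, chr4:24897963-24898082).
Ndufa11: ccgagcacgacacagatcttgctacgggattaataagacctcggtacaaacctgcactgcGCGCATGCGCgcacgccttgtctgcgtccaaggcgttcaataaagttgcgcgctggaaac
Ndufs5: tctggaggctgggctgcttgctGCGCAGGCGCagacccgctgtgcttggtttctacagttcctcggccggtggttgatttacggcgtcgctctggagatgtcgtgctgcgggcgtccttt
Ndufaf4: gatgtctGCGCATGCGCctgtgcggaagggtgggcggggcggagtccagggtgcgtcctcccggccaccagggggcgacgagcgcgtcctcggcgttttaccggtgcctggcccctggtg
The motif began 60, 98 and 113 bases before the start site in these genes. A match describes the letters only and was not related to any level.

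The question of how abundant complex I transcripts are in each preparation was addressed first. Their summed level was 1561, 1775 and 1497 mRNA CPM in pools 1 to 3, which is 0.150% to 0.177% of all mRNA counts. In control chambers other than sc3 it ran from 1019 in Ctrl4 to 2760 in C1, with a median of 1743, and in KCl chambers it was 2408, 1951 and 2427. In sc3 it was 11023, or 1.10% of mRNA counts. The pools and the KCl chambers each lay within the range of the other 7 controls but did not overlap with each other, the pools being lower, and sc3 lay far above every other library. The mRNA total includes the mitochondrially encoded complex I subunits. These took 78543 to 104171 mRNA CPM in the pools, 1734 to 11061 in controls and 7117 to 11498 with KCl. Their part in the lower sums of the pools was not tested. The library sc3 was also above the rest for the 7 core subunits, which summed to 2245 in sc3 and to 245 to 673 in the other controls, for the 29 accessory subunits (7599 against 592 to 1838) and for the 8 assembly factors (498 against 122 to 173). Assembly factors were lowest in the pools, at 57.9 to 68.0 mRNA CPM summed, and KCL1a came next at 76.2. In bulk RNA of this kind, fewer neurites or mitochondria and less RNA in each cannot be told apart.

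**Figure D1:**
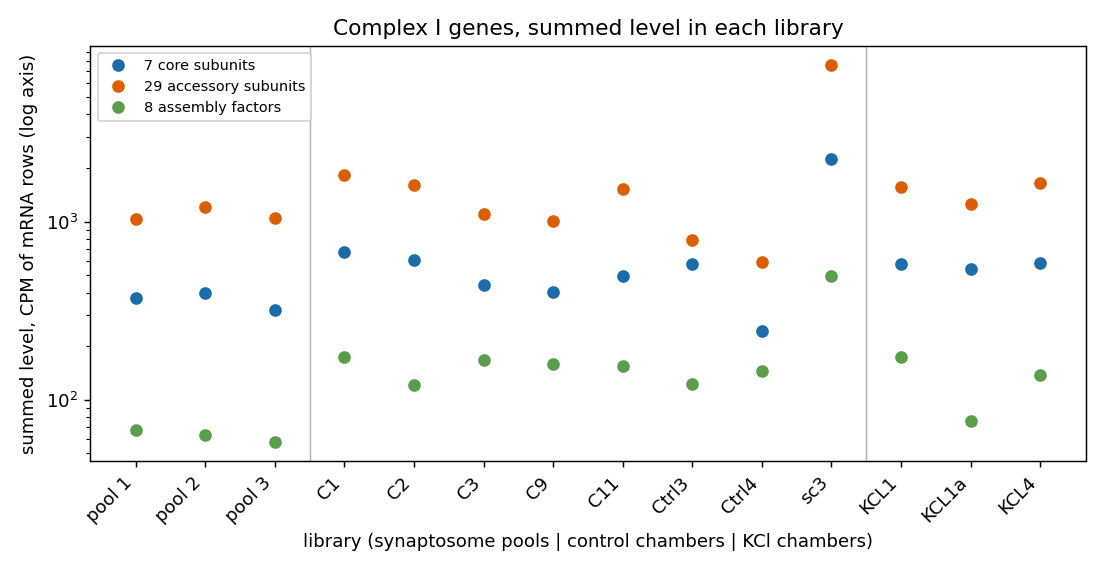
Summed level of the 7 core subunits, 29 accessory subunits and 8 assembly factors in each library, in mRNA CPM on a log axis; each point is 1 library, with synaptosome pools, control chambers and KCl chambers separated by lines. The sc3 library lies above every other library in all 3 classes, and the pools hold the 3 lowest sums of assembly factors.

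The study's detection cutoffs, 50 for synaptosomes and 100 for chambers, were applied here to the group mean of CPM of the whole table, a reading that its methods do not spell out. On this reading 0 of the 46 genes were detected in synaptosomes, where 1.54% of mRNA rows with a count passed. In the 8 controls 5 passed (6.54% of mRNA rows), among them Ndufs1, Ndufv2, Ndufb9 and Ndufa4, and in the 7 controls without sc3 none passed (5.98% of mRNA rows). In KCl chambers 2 passed (7.41% of mRNA rows), among them Ndufs1. For Ndufa4 the control mean of 110 CPM of the whole table (SD 224, n = 8) fell to 31.1 (SD 16.6, n = 7) without sc3, in which it stood at 663. For Ndufb9 the mean was 107 (SD 149, n = 8) and fell to 55.8 (SD 31.5, n = 7) without sc3. The absence of all 46 genes from the synaptosome set also depended on the denominator. Scaled to mRNA counts, 9 genes passed 50 in synaptosomes, among them Ndufs1, Ndufv2, Ndufa9, Ndufa10, Ndufa13, Ndufb8, Ndufb9 and Ndufa4, beside 19.4% of mRNA rows, so that the share of the members was that of mRNA rows in general. Ndufs1 and Ndufb9 passed 100 (9.87% of mRNA rows). At 100 mRNA CPM 2 genes, Ndufs1 among them, passed in the 7 controls (9.46% of mRNA rows) and 5 passed in KCl chambers (10.8% of mRNA rows).

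The core subunits form the electron path. Ndufs1 (chromosome 1, 63143596 to 63176833, GRCm38), the largest of them and a carrier of iron-sulfur clusters, stood at 107, 132 and 74.6 mRNA CPM in the pools (mean 105, SD 29, n = 3). It was at 226 in sc3 and at 86.0 to 191 in the other 7 controls, with a median of 114. KCl chambers gave 119, 194 and 128 (mean 147, SD 41.0, n = 3), so that the groups overlapped once sc3 was set aside. Ndufs7, which holds the last iron-sulfur cluster before ubiquinone, differed more between control libraries. It was at 376 in sc3 but at 15.2 to 53.6 in the other 7 (median 22.4), at 26.4, 26.7 and 19.5 in the pools and at 33.3, 37.3 and 48.8 in KCl chambers. Ndufv1, the subunit that binds NADH and flavin, stood at 406 in sc3, 45.6 to 101 in the other controls, 41.1 to 54.5 in the pools and 37.3 to 90.8 with KCl. Its partner Ndufv2 was at 409, 28.7 to 139, 45.2 to 63.3 and 50.1 to 113 in the same order. For Ndufs8 the values were 271, 8.12 to 50.6, 29.2 to 37.3 and 17.8 to 36.2. Ndufs3 was at 15.7, 13.1 and 11.9 in the pools, below all 8 controls (16.6 to 57.2, and 170 in sc3).

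Levels were compared between genes only after division by the length of the principal transcript. In synaptosomes the median level per kilobase was 31.6 for the 7 core genes, 41.8 for the 29 accessory genes and 6.75 for the 8 assembly genes, beside 3.98 for all mRNA rows with a count. In the 7 controls without sc3 these medians were 44.5, 44.9 and 10.7, beside 8.92, and in KCl chambers 47.3, 51.7 and 7.30, beside 5.56. With sc3 among the controls they rose to 69.5, 75.5 and 15, beside 8.52, and in sc3 alone they were 241, 288 and 41.1. Core and accessory genes thus had close medians, with a ratio of core to accessory of 0.756 in synaptosomes, 0.990 in the 7 controls and 0.915 with KCl, and their ranges overlapped widely. Per kilobase, accessory genes ran from 1.05 to 297 in synaptosomes. Assembly genes had lower medians than both in each group, and their highest value in synaptosomes, 8.32, lay below all 7 core genes. In synaptosomes and KCl chambers the highest accessory gene was Ndufb9, a small membrane arm subunit (chromosome 15, 58933756 to 58939488). It was at 297 mRNA CPM per kilobase in synaptosomes (SD 36.8, n = 3) and 192 with KCl (SD 31.0, n = 3). Other accessory genes stood highest in the 7 controls without sc3 (maximum 110) and in sc3 (Ndufa1 at 854).

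The library sc3 was then set against the other 7 controls, without a test, since it is 1 library. Its level was above all 7 for 45 of the 46 genes, whereas 16.1% of mRNA rows with a count in any control were above all 7. By its gap to the nearest other control against the range of all 8, sc3 stood apart for 35 of the 46 genes (8.05% of mRNA rows), and any library did so for 36 (22.5% of mRNA rows). The median ratio of sc3 to the median of the other 7 was 5.97 over the 46 genes and 0.322 over all those mRNA rows. Among mRNA rows with a median of at least 20 mRNA CPM in the other 7, 22.0% were above all 7 with a median ratio of 0.575, and of the complex I genes at that level 34 of 34 were above, with a median ratio of 5.65. The ratio differed between members. It was 24.3 for Ndufa4, 22.8 for Ndufa3 and 18.9 for Ndufs6, 16.8 for the core gene Ndufs7, and 1.98 for Ndufs1, the lowest of the 45. By class, the medians were 5.79 for core, 6.37 for accessory and 3.38 for assembly genes. Ndufa4l2, a paralog of Ndufa4 known to be induced by low oxygen, was the exception, at 0.341 mRNA CPM in sc3 against 114 in Ctrl3, 18.6 in Ctrl4 and 0 to 6.00 in the bare-number controls.

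The ratio of sc3 went with transcript length. Over the 15 members with the shortest transcripts its median was 13, and over the 15 longest it was 4.10. Across the 46 genes the ratio and the length, both as log2, had a Pearson r of -0.39 and a Spearman rho of -0.60, given as a description because genes of 1 library share its depth and preparation. Across 10446 mRNA rows of at least 20 mRNA CPM with a ratio above 0, the Spearman rho was -0.40. In that background, rows with transcripts of up to 1000 bases had a median ratio of 2.42 and rows over 4000 bases one of 0.354. The complex I members, here and across the 46 genes, were not held to that level of 20 mRNA CPM, unlike the background. Members of up to 1000 bases, 24 in all, had a median ratio of 8.85, above the background median of their length. The 17 members of over 1000 and up to 2000 bases had 4.10 beside 1.52. The part of depth, mRNA share and receptor rows in this difference was not tested.

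**Figure D2:**
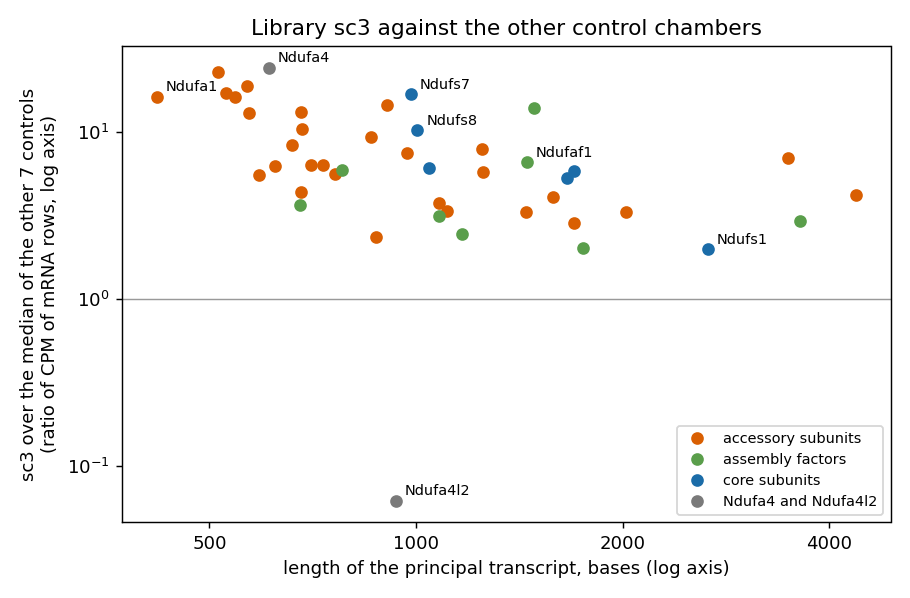
Level of 45 of the 46 genes in sc3 divided by the median in the other 7 control libraries (ratio of mRNA CPM, log axis) against the length of the principal transcript in bases (log axis), coloured by class; the grey line marks a ratio of 1. All genes but Ndufa4l2 lie above the line, from 1.98 for Ndufs1 to 24.3 for Ndufa4, and shorter transcripts tend to lie higher.

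Whether KCl changed complex I transcripts was tested with edgeR's quasi-likelihood test across 28232 genes, with a term for the kind of title (bare number or letters), so that the 3 KCl libraries were in effect set against Ctrl3, Ctrl4 and sc3. A gene was called when its Benjamini-Hochberg adjusted p was 0.05 or lower and its log2 fold change was beyond 1 in either direction. None of the 46 genes was called, where 0.00354% of all genes were called. At an unadjusted p under 0.05 there were 9 of the 46 genes, all lower with KCl, where 6.12% of all genes tested were in either direction, and DESeq2 called 0 as well. The median log2 fold change was -1.56 over the 46 genes and -0.46 over all mRNA rows tested, and 45 of the 46 were below 0. The 6 genes of smallest p were Ndufa11 (log2 fold change -2.84, SE 1.17), Ndufb3 (-2.85, SE 1.21), Ndufa7 (-3.21, SE 1.35), Ndufs7 (-2.32, SE 1.00), Ndufaf6 (-3.35, SE 1.48) and Ndufb2 (-2.48, SE 1.10), with adjusted p from 0.744 to 0.771 in edgeR.

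In the model with the term for the kind of title, the single library sc3 decided the direction. With all 8 controls kept, the median was 0.43 with 1 factor of unwanted variation and 0.0088 with a block by title number. Ndufa11, a membrane arm subunit whose promoter is shown above, was at 16, 42.8 and 29.6 mRNA CPM in KCl chambers, at 9.57 to 45.8 in the other 7 controls and at 375 in sc3. Ndufa7, an accessory subunit of the peripheral arm, was at 20.7, 15.6 and 17.0 with KCl, 0.638 to 28.1 in the other 7 and 308 in sc3. For both genes the KCl libraries lay within the range of the other 7 controls. Ndufb3 was at 12.2, 0 and 12.6 with KCl, 5.06 to 42.1 in the other 7 and 121 in sc3, and Ndufb2 at 16.9, 0 and 18.1, 7.54 to 67.6 and 118. Ndufaf6, an assembly factor of an early step, was at 2.82, 0 and 4.63 with KCl and at 1.74 to 31.2 in the other 7. The zeros of these 3 genes were all in KCL1a. Over the 46 genes, the KCl libraries were all below sc3 for 44, the exceptions being Ndufa4l2 and Ndufaf2, where 23.9% of mRNA rows were, and for none of the 46 were they all above the other 7 controls (0.987% of mRNA rows).

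Without sc3 the direction turned. The median log2 fold change became 2.05, beside -0.08 for all mRNA rows, and 12 genes were called higher and 0 lower, where 4.53% of 32441 genes tested were called higher. The genes called higher, named after their values were seen, were the core gene Ndufv2 (log2 fold change 2.55, SE 0.73), the assembly factor Ndufaf2 and the accessory genes Ndufa1, Ndufa8, Ndufa12, Ndufa13, Ndufb9, Ndufb10, Ndufb11, Ndufc1, Ndufc2 and Ndufs6. In that fit the controls of the same kind of title were Ctrl3 and Ctrl4, and Ctrl3 had no count of 9 of the 12 genes. Ndufa1, with the largest value (log2 fold change 6.21, SE 1.59), was at 0 and 1.69 mRNA CPM in Ctrl3 and Ctrl4, at 24.9, 18.4 and 21.8 with KCl and at 10.003 to 55.9 in the bare-number controls. Ndufa13 was at 0 and 18.6 in Ctrl3 and Ctrl4, 77.0, 57.9 and 105 with KCl, and 66.5 to 111 in the bare-number controls. The 6 neuron markers (Camk2a, Snap25, Syt1, Syp, Map2 and Grin1) were called higher with KCl in the same fit, 6 of 6, and summed to 1735 and 871 mRNA CPM in Ctrl3 and Ctrl4, 2806 to 7358 with KCl and 2253 to 6152 in the bare-number controls. Their part in the result was not tested.

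Set against the 5 bare-number controls alone, the 46 genes had a median log2 fold change of 0.31, beside 0.02 for all mRNA rows, and 0 genes were called in edgeR, with 1, Ndufb8, at an unadjusted p under 0.05. The core genes were all above 0 in this fit, with a median of 0.48, yet none passed. The response of complex I transcripts to KCl thus had a negative, a positive or a small median according to the controls and the model. The 4 subunits of complex II, which are all nuclear, had a median log2 fold change of -1.80 with all controls and 1.83 without sc3, with 0 called in both. The 7 mitochondrially encoded complex I subunits, of which 5 were tested, had a median of 2.42 with all controls and 0 called, and without sc3, where 6 were tested, 4 were called higher.

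**Figure D3:**
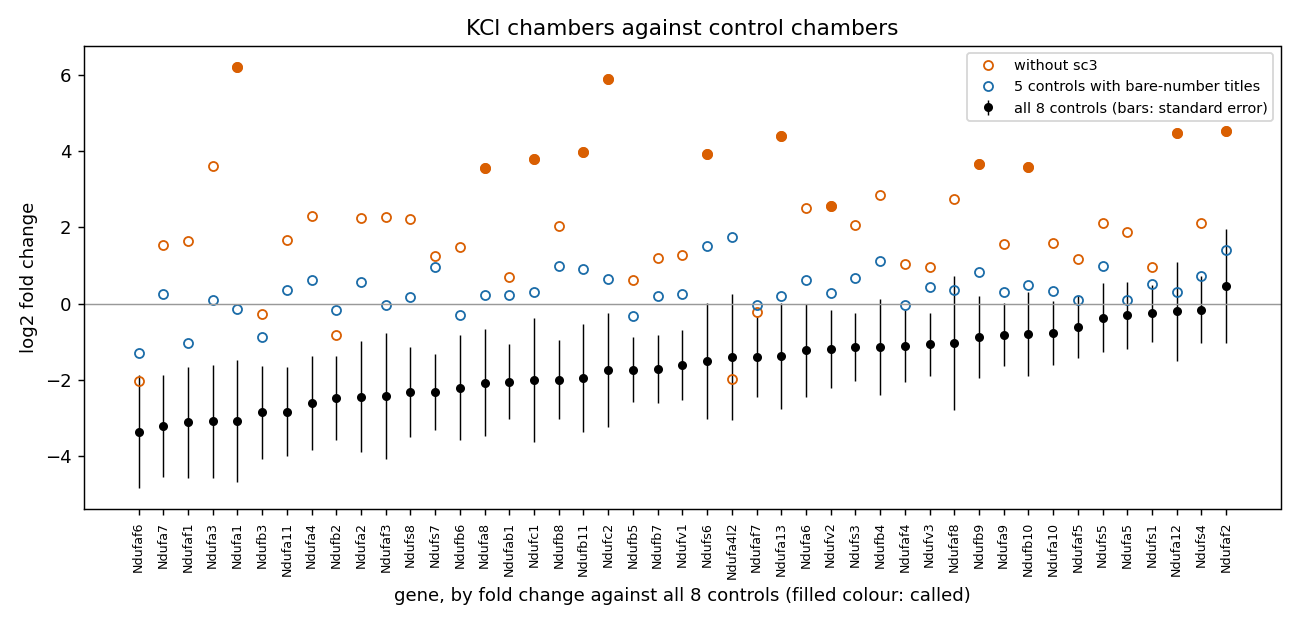
Log2 fold change of KCl against control chambers for 45 of the 46 genes, ordered by the value against all 8 controls (black, with the standard error of the fit); orange circles leave sc3 out and blue circles use the 5 controls with bare-number titles, and filled circles are called. Black points lie below 0 for all genes drawn but Ndufaf2, the 12 filled orange points lie above 2, and blue points lie between -1.30 and 1.74.

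Synaptosomes were compared with control chambers on mRNA rows. Strain, age, culture, extraction and library kit differ with the preparation, and these cannot be told apart from it. With all 8 controls 0 of the 46 genes were called in edgeR, where 11.5% of 18412 mRNA rows were called. At an unadjusted p under 0.05 there were 3 of the 46 genes, all lower in synaptosomes, where 36.7% of mRNA rows were in either direction. DESeq2 called 6 higher, where 8.79% of mRNA rows were, and 2 lower, where 28% were. The median log2 fold change was -0.49 over the 46 genes, beside -0.99 over all mRNA rows. Another scaling, the total of mRNA counts, moved the median of all mRNA rows to -2.09 and that of the 46 genes to -1.20, so that the complex I genes lay above the median of mRNA rows in both scalings. Without sc3 there were 8 genes called higher, where 12% of mRNA rows were, and 3 called lower, where 26.4% were, and the median was 0.64 beside -0.79.

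The 8 genes called higher without sc3, named after their values were seen, were Ndufb9, Ndufb8, Ndufb5, Ndufb11, Ndufa2, Ndufa3, Ndufa7 and Ndufa4. Ndufb9 was at 184, 236 and 206 mRNA CPM in the pools, at 21.7 to 136 in the 7 controls and at 481 in sc3 (log2 fold change 2.55, SE 0.58, adjusted p = 0.00401 in edgeR without sc3, and 1.40, SE 0.90, adjusted p = 0.254 with it). Ndufa4 was at 83.2, 107 and 68.1 in the pools and at 18.6 to 74.5 in the 7 controls (log2 fold change 2.18, SE 0.50, without sc3), and its 681 in sc3 was the highest level of any member in any library. Ndufa3 was at 43.3, 44.7 and 40.5, against 0 to 32.7, and Ndufb11 at 48.3, 48.0 and 43.3, against 0 to 36.5. In sc3 they were at 297 and 262. Ndufb9, Ndufa3 and Ndufb11 were the 3 members for which all pools lay above all 7 controls, and 3.80% of mRNA rows did so. All 3 pools lay below sc3 for each of the 46 genes and for 48.8% of mRNA rows.

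Lower in synaptosomes without sc3 were Ndufs5, Ndufab1 and Ndufa4l2. Ndufs5, an accessory subunit on the intermembrane space side, was at 6.18, 4.90 and 1.62 in the pools, at 20.01 to 68.5 in the 7 controls and at 146 in sc3 (edgeR log2 fold change -2.80, SE 0.96, adjusted p = 0.066 with all controls, and -2.01, SE 0.66, adjusted p = 0.0268 without sc3). Ndufab1, the mitochondrial acyl carrier protein, which also serves fatty acid and lipoic acid synthesis, was at 2.25, 4.36 and 4.33, against 13.4 to 47.5 and 202 in sc3 (edgeR log2 fold change -3.14, SE 1.09, adjusted p = 0.0674, and -1.87, SE 0.58, adjusted p = 0.0204). All pools lay below every control for both genes. Ndufab1 is among the genes with a copy elsewhere, and that copy had no count in any pool. Ndufa4l2 had no count in any pool. A count of 3 in a pool would be at most 1.69 mRNA CPM, and against that limit its level in the pools was at least 11.1-fold lower than the mean of the 8 controls and at least 3.08-fold lower than their mean without Ctrl3, which held 178 of its counts. Only 5 of the 8 controls were above the limit.

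For 6 members all pools lay below all 7 controls, and 27.1% of mRNA rows did so. Beside Ndufs5, Ndufab1 and Ndufs3, described above, these were the assembly factors Ndufaf4, Ndufaf5 and Ndufaf7. Ndufaf5, which modifies the core subunit Ndufs7, was at 9.55, 10.9 and 8.65 in the pools, 22.4 to 67.0 in the 7 controls, 90.2 in sc3 and 38.0, 70.1 and 25.2 with KCl. Ndufaf4, which acts with Ndufaf3 in building the ubiquinone module, was at 10.7, 8.72 and 7.57, against 16.5 to 52.5 and 85.9. Ndufaf7, a methyltransferase, was at 11.8, 13.1 and 13.5, against 15.4 to 43.9 and 60.9. None of these 3 was called with all controls or without sc3, with log2 fold changes of -1.40 (SE 0.69) for Ndufaf5 and -1.14 (SE 0.74) for Ndufaf4 in the fit with all 8. Across classes without sc3, the median log2 fold change was 0.63 for core, 0.68 for accessory and -0.01 for assembly genes. Of 12 further assembly factors of complex I with other names, 11 were tested and 0 were called with or without sc3.

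**Figure D4:**
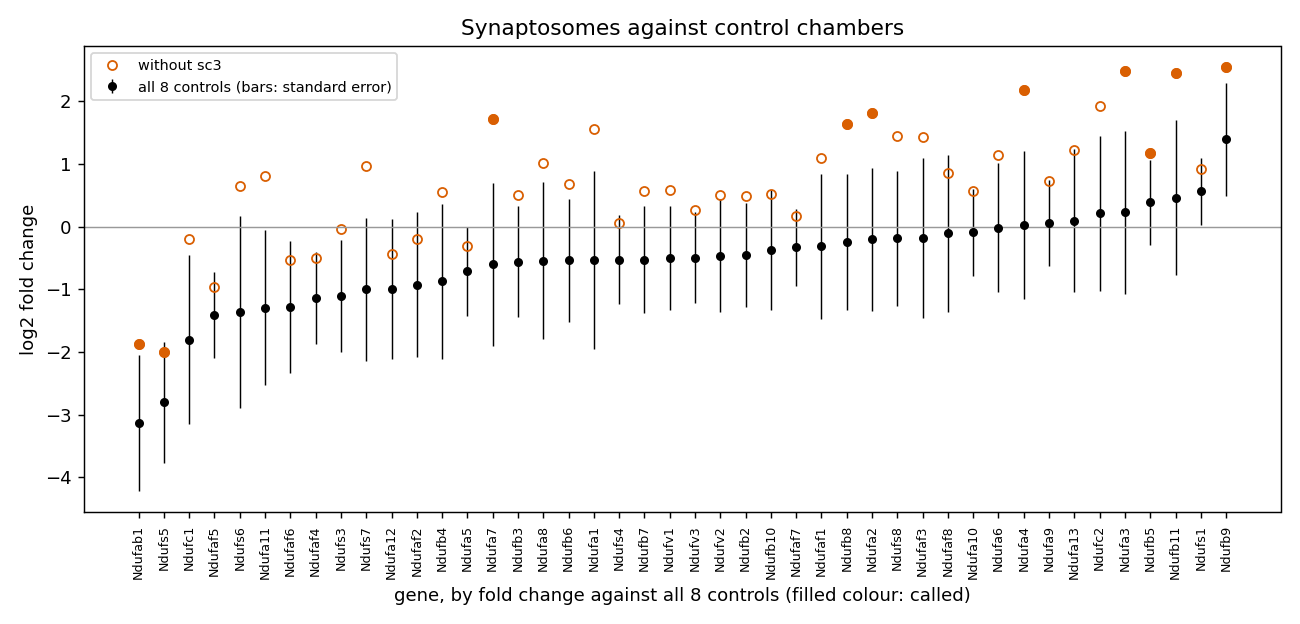
Log2 fold change of synaptosomes against control chambers for 44 genes, ordered by the value with all 8 controls (black, with the standard error of the fit); orange circles leave sc3 out and filled circles are called. Ndufa4l2, with no count in any pool, is left out. Ndufab1 and Ndufs5 lie lowest in both fits, and the 8 filled orange points above 0 run up to 2.55 for Ndufb9.

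The mitochondrially encoded subunits, which complete the core, summed to 78543 to 104171 mRNA CPM in the pools, 1734 to 11061 in the controls and 7117 to 11498 with KCl. The ratio of their sum to that of the 46 nuclear genes was 66.7, 50.0 and 52.5 in pools 1 to 3, 1.48 to 6.60 in the 7 controls and 2.96 to 4.74 with KCl, and in sc3 it was 0.294. The groups of pools and chambers did not overlap, and sc3 lay below all other libraries. In edgeR 5 of the 5 tested mitochondrial genes (mt-Nd1, mt-Nd2, mt-Nd4, mt-Nd5 and mt-Nd6) were higher in synaptosomes with all 8 controls, with log2 fold changes of 4.08 to 5.43, and without sc3 as well. For mt-Nd3 and mt-Nd4l no count was found in any pool, and they were not tested. Markers of other cells moved with the preparation too. The 6 microglia markers summed to 1761 to 2407 mRNA CPM in the pools against 8.28 to 235 in the controls, and 6 of 6 were called higher. In the same fit, with all 8 controls, 851 of 18412 mRNA rows were called higher. Astrocyte markers summed to 17168 to 22323 against 820 to 6490, oligodendrocyte markers to 1784 to 2747 against 267 to 1301, and neuron markers to 9726 to 13787 against 871 to 6152, with 2, 3 and 3 of 6 called higher in these lists. The part of these cells in the levels of complex I genes was not tested.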

How the data were processed

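Total RNA libraries of 3 synaptosome pools and 11 chamber samples were analysed. As given in the methods and processing notes, the authors converted reads with bcl2fastq 2.20.2, aligned them to mm10 with STAR 2.5.2b and counted them per gene with featureCounts 1.5.1. The deposited counts are raw counts per gene and library. The CPM values that the authors deposited are counts scaled to the library total of all rows. The members and gene lists were chosen with earlier results of these data known. Here edgeR 4.0.16 (R 4.3.3) was run with TMM scaling, its expression filter and the robust quasi-likelihood test, with Benjamini-Hochberg adjustment over all genes tested. The KCl comparison used all rows and a term for the kind of title, which the labels do not explain, and the synaptosome comparison used mRNA rows. DESeq2 1.42.0, other scalings, filters and control sets were alternatives. Named genes were the core genes, those at a cutoff, the 6 of smallest p in each comparison, the 3 assembly genes of highest mean CPM of the whole table over all libraries, not divided by length, and any with no count in a group; other names were chosen after their values were seen. The values of 1 core gene are not reported here, though it stays in the counts, sums and medians. Libraries are named by their column headings. Transcript lengths came from GENCODE vM21. Total counts per library ranged from 722529 to 80883504, and low counts limit precision most in the shallow chambers. The script was tested on simulated data.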

Additional observations from a re-analysis of the deposited data

Results flagged for a closer look

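In the 8 control libraries, sc3 stood apart by its gap to the nearest other library in most complex I genes. Among the named genes these were, in mRNA CPM of sc3, Ndufa4 at 681, Ndufb9 at 481, Ndufv2 at 409, Ndufv1 at 406, Ndufs7 at 376, Ndufa11 at 375, Ndufa7 at 308, Ndufs8 at 271, Ndufab1 at 202, Ndufs3 at 170, Ndufs5 at 146 and Ndufb3 at 121. The gap was also seen in the summed levels of the 46 genes (11023), of the core genes (2245), of the accessory genes (7599) and of the assembly genes (498), and in the total counts of sc3 (48281227) and its share of mRNA counts (97.3%). Ndufa4l2 was the exception, since Ctrl3 stood apart there at 114 mRNA CPM. Over all 46 genes such a gap was present in 36, 35 of them for sc3 and 1 for Ctrl3, beside 22.5% of mRNA rows for any library and 8.05% for sc3. The nominal rate of such a gap is about 1 in 20 independent groups. That rate did not hold for mRNA rows in general, at 22.5%, and these genes share the same 8 libraries.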

How the results depend on the processing

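For KCl, 0 complex I genes were called higher with all controls, 2 with 1 factor of unwanted variation and 12 without sc3. The median log2 fold change turned from -1.56 to 0.31 with bare-number controls only, 0.43 with the unwanted factor, 2.05 without sc3 and 2.42 without sc3, Ctrl3 and KCL1a. In the last of these fits Ctrl4, the shallowest library, was the only control with the KCl libraries' kind of title. Only effect sizes are therefore given for it. The labels do not say that title numbers pair samples. With the replicate block by title number the median was 0.0088, Ndufs7 was at 0.14 and 0 members were called. In the order bare-number controls, without sc3 and without the 3 libraries, Ndufa11 was at 0.37, 1.66 and 1.16, Ndufa7 at 0.25, 1.54 and 0.86, and Ndufs7 at 0.97, 1.24 and 2.71. Without the 3 libraries Ndufb3 was at 2.51 and Ndufb2 at 0.44. Leaving out 1 library gave 0 to 12 genes called higher for KCl, 0 to 1 called lower (Ndufa7, at -3.80, without Ctrl3) and medians of -2.29 to 2.05. Over all 28232 genes tested, KCl calls were 1 higher and 0 lower, against 406 and 9 in DESeq2 and 1045 and 13 with the unwanted factor. They were 37 and 16 of 43942 without a filter, 9 and 19 of 31787 without Ctrl3 and 1469 and 153 of 32441 without sc3.

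For synaptosomes, 0 members were called higher, against 6 in DESeq2, 8 with bare-number controls, 8 without sc3 and 11 without sc3 and Ctrl3. Members called lower were 0, against 2 in DESeq2, 2 with RLE scaling, 6 with mRNA totals, 3 with bare-number controls, 3 without sc3 and 2 without sc3 and Ctrl3. The median turned from -0.49 to 0.17 in DESeq2, 0.45 with bare-number controls, 0.64 without sc3 and 0.63 without sc3 and Ctrl3, and leaving out any other library gave -0.64 to -0.40. Over all 18412 mRNA rows tested, 851 were called higher and 1265 lower. On the same rows DESeq2 called 1619 and 5156, RLE scaling 1037 and 1466, and mRNA totals 358 and 5954. Bare-number controls gave 2379 and 4973 of 16303 rows. Without sc3 there were 2188 and 4817 of 18276, and without sc3 and Ctrl3 2452 and 5603 of 17908. In what follows, brackets give the share of mRNA rows with a count that passed. Genes at the cutoff in synaptosomes were 9 on the mRNA CPM scale (19.4%). Controls had 24 at a cutoff of 50 (19.3%), 11 on the mRNA CPM scale (9.76%) and 0 when every library had to pass (0.872%). They had 0 without sc3 (5.98%) and 6 to 9 without any other library (6.39% to 7.03%). KCl chambers had 13 (15.9%), 5 (10.8%) and 0 (4.46%) in the first 3 settings and 1 to 2 with a library left out (7.14% to 8.33%). The ratio of core to accessory medians was 1.58, 1.81 and 1.57 without a length term in synaptosomes, controls and KCl chambers, and 0.997 in synaptosomes with the union of exons. The fits without several libraries and the union of exons were chosen after seeing the data. The cause was not tested. Ctrl4, with 722529 counts, had the least depth.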
